A study of Mus musculus with 4 samples.

Results

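The cytosolic ribosomal protein genes were followed through 4 RNA-seq libraries of C2C12, a line of mouse myoblasts whose cells fuse into myotubes when serum is withdrawn. Entries were taken by symbol, as every Rpl or Rps followed by a digit plus Rpsa, Rplp0, Rplp1 and Rplp2. The rule left out the 10 Rps6k kinases and 6 symbols with the pseudogene suffix -ps. It matched 88 of the 24850 entries with a gene symbol in the total RNA tables and 89 of 24992 in the polyA tables. Of these, 77 are the core genes of the ribosome, 46 of the large and 31 of the small subunit, which lie on 19 chromosomes with 14 on chromosome 7. Another 9 are paralogs with a suffix to a core name, such as Rpl3l and Rps27l. The rest are Rpl37rt, Rps19bp1 and, in the polyA tables only, Rpl32l, which was listed at 0 in both. Rps3a was matched under its symbol Rps3a1.

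Ribosomes translate every cytosolic mRNA. The small subunit reads the codons, and the large subunit joins the amino acids. Most proteins of the ribosome are needed in equal numbers of copies, and the genes are spread over the genome rather than linked. Their mRNAs are known as 5′ terminal oligopyrimidine (TOP) mRNAs: they begin with a C followed by a run of pyrimidines, and their translation depends on growth signals. Dividing cells are known to invest heavily in making ribosomes, and differentiated muscle cells less so.

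A pyrimidine run near the annotated start was common among these genes, so a few are shown. RefSeq promoter windows (build GRCm38.p6, 250 bases before to 50 after the annotated start) were at hand for 57 of the 77 core genes. A run of 8 or more pyrimidines beginning with C lay between 30 bases before and 50 after the start in 45 of these 57 (78.9%), on the sense strand, against 26.0% of the 27025 genes in the table. The count was 29 of 34 large subunit and 16 of 23 small subunit genes. In 13 of 57 (22.8%) the annotated start itself was a C followed by at least 4 pyrimidines, against 3.01% of all genes. The windows below run 5′ to 3′ from 50 bases before the start to 20 after it, with the pyrimidine run in capitals. Rpl15, Rplp2 and Rps6 have the run across the start, Rps12 has it after the start and Rpl13 before it. Rpsa and Rpl22 have none in that range. The last 3 genes are taken up below, at or near the ends of the ranked changes. A run of this kind in the Rpl22 window begins more than 30 bases before the start and so stays in lower case.
Rpl15, chr14:18270967-18271036, minus strand: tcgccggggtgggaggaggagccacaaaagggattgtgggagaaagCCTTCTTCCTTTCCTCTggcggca
Rplp2, chr7:141447601-141447670, plus strand: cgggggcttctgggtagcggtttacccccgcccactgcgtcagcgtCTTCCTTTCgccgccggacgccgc
Rps6, chr4:86857348-86857417, minus strand: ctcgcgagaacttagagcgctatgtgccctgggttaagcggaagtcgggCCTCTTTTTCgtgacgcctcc
Rps12, chr10:23787190-23787259, minus strand: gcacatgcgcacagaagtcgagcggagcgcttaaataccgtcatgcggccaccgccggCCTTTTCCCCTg
Rpl13, chr8:123102300-123102369, plus strand: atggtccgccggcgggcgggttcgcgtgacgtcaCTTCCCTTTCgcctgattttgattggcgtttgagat
Rpsa, chr9:120127716-120127785, plus strand: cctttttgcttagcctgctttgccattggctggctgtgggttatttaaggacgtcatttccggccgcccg
Rpl22, chr4:152325676-152325745, plus strand: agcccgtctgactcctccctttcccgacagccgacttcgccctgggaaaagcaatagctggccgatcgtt

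Over the whole window of 300 bases, on both strands, the letters CGGAAG, the core bound by ETS factors, were in 40 of the 57 core genes (70.2%), against 18.8% of all genes and 36.6% of the other genes tested here. The reverse complement of CGGAAG is CTTCCG, which can overlap a pyrimidine run. GGGCGG was in 61.4% of the core, 38.2% of all genes and 70.8% of the other genes tested. CAGCTG, an E-box that MyoD binds, was in 2 core genes (3.51%), against 18.3% of all genes and 17.9% of the other genes tested. AAGATGG was in 9 (15.8%, against 7.28% and 8.71%). For CACGTG, the E-box of Myc, and TATAAA the direction turned with the set compared. Each was in 6 core genes (10.5%), against 8.09% of all genes and 12.2% of the other genes tested for CACGTG, and 15.7% and 8.43% for TATAAA. These matches describe letters in a window and not bound sites.

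The libraries fall into 2 comparisons with 1 library per condition, so nothing here can be set against a spread between replicates and no test was run. Myoblasts in growth medium (MB, 24 h before the switch to differentiation medium, DM) and myotubes (MT, 72 h in DM) gave rRNA-depleted, strand-specific total RNA. Cells kept for 48 h in DM and transfected with an siRNA to hnRNPL (si-hnRNPL), an RNA-binding protein that acts in splicing and, in this study, with enhancer RNAs, or with a control siRNA (si-NC), gave polyA RNA. The values are FPKM, fragments scaled by transcript length and by library size, each with a 95% interval that covers counting and read assignment within a library only. The effective number of fragments that the intervals imply was 59960176 in MB and 54442655 in MT, and 14592485 with si-hnRNPL against 21341051 with si-NC. This number falls with uncertain read assignment as well as with depth, so it is not the library size. Hnrnpl, the targeted gene, stood at 85.9 FPKM in si-hnRNPL against 95.1 in si-NC. The 8 listed myotube markers summed to 16.8 FPKM in MB and 1936 in MT, and all 8 were higher in MT. The 6 myoblast and proliferation markers summed to 622 and 209. The 8 markers of blood, endothelial, neuronal, epithelial, fat and liver cells summed to between 0.466 and 1.15 in each library, with 2 to 5 of them at 0.

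Ribosomal protein mRNAs were among the most abundant in all 4 libraries. The median core gene stood at 505 FPKM in MB, 320 in MT, 526 in the si-NC library and 642 in the si-hnRNPL library. Together the 77 genes held 10.3% of the summed FPKM of named entries in MB, 8.61% in MT, 10.6% in the control siRNA library and 11.8% after si-hnRNPL, with loci under 300 bp and microRNA genes left out of the sum. The direction between MB and MT rests on what is left out: of the summed FPKM of every entry, the core held 5.85% in MB and 7.25% in MT. The large and small subunits had near-equal medians. The ratio of the large to the small subunit median was 0.987 in MB, 1.03 in MT and, for the polyA libraries, 1.050 with si-NC and 1.13 with si-hnRNPL.

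**Figure D1:**
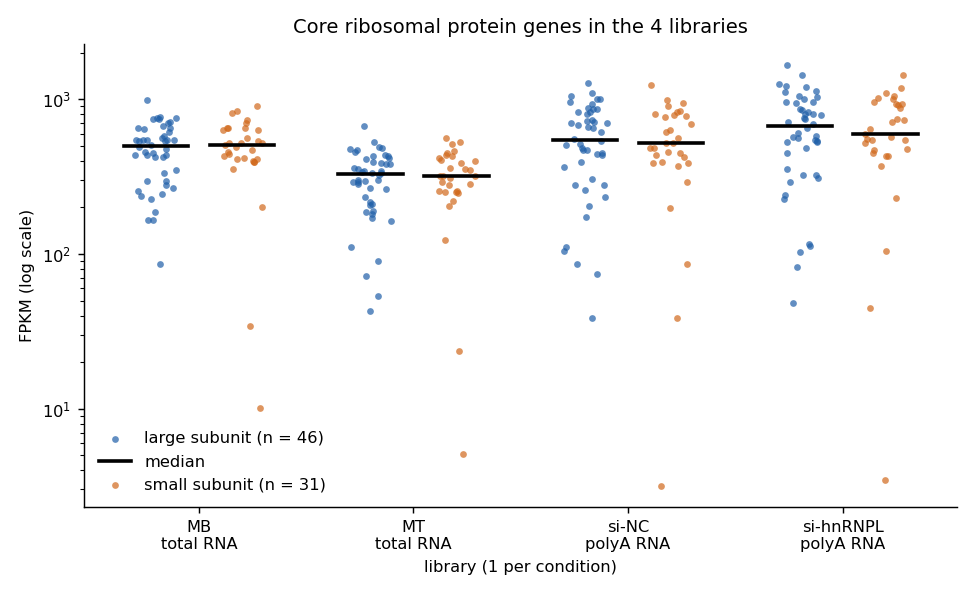
FPKM of the 77 core ribosomal protein genes (points, log axis) in each of the 4 libraries, split into large (46) and small (31) subunit, with the median as a bar. The medians of the subunits lie close to each other in every library (500 and 507 FPKM in MB, 329 and 319 in MT), and a few genes sit far below the rest.

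The highest large subunit genes over the 4 libraries were Rpl41, Rplp1 and Rpl23a. Rpl41, which encodes a peptide of unusually small size, stood at 986 FPKM in MB, 674 in MT, 1271 with si-NC and 1669 with si-hnRNPL. Rplp1, a protein of the stalk that recruits elongation factors, stood at 750, 440, 1098 and 1430 in the same order, and Rpl23a at 758, 529, 1008 and 1199.9. All 3 had their lowest value in MT. Of the small subunit, Rps12 was highest at 912, 559, 1232 and 1448 FPKM, followed by Rps26 at 652, 429, 986 and 1179.

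At the low end, Rpl30 and Rpl26 had the lowest means of the large subunit over the 4 libraries, at 91.5 and 96.2 FPKM, close to Rpl22 at 100.0, and Rps27 and Rps15a the lowest of the small subunit. In MB alone Rpl22 was the lowest of the large subunit. Rps27 was listed at 10.1 FPKM in MB, 5.09 in MT, 3.15 with si-NC and 3.43 with si-hnRNPL, and Rps15a at 34.3, 23.6, 38.4 and 44.7. These values stand far below the medians of 507, 319, 520 and 596 FPKM of the small subunit, although the ribosome holds both proteins. Rpl26, Rpl30 and Rps27 each share their locus with a second entry, which is taken up below.

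The order of the core genes was nearly the same in MB and MT, with a Spearman rho of 0.97 across the 77 genes. Across library types it was looser. Between MT and si-NC the rho was 0.93 over the 46 large subunit genes and 0.48 over the 31 small subunit genes. These are descriptions over genes measured in the same pairs of libraries. Most core genes were higher in si-NC than in MT, by a median of 1.84 times, and 8 of 77 were lower. The lowest ratio belonged to Rps20, a protein of the small subunit head, at 736 FPKM in MB and 515 in MT against 86.2 and 105 in the polyA libraries. Its locus is listed as chr4:3761620-3762747 (mm9) in the total RNA tables and as chr4:3758731-3762802 in the polyA tables. The locus differed between the kinds of table for 5 of the 77 core genes, namely Rps20, Rpl29, Rps4x, Rpl39 and Rps28. The ratio of si-NC to MT was 1.87 for Rps4x, 2.11 for Rpl39 and 1.77 for Rps28. Rps2, with a ratio of 0.625, had the same locus in both kinds of table. Rpl29 stood at 349 and 216 FPKM in the total RNA libraries and at 86.8 and 103 in the polyA libraries.

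In the comparison of MT vs MB, nearly the whole set was lower in MT. Changes are given as log2 of the ratio of FPKM + 1, and an entry was tested where its mean FPKM over the 2 libraries was at least 1. The log2 change was below 0 for 76 of 77 core genes, against 62% of the 11486 named entries tested. The median was −0.60 for the large and −0.64 for the small subunit, a difference of 0.04, and −0.21 over all entries tested. The threshold was 0.58 on the log2 scale, which rounds the study's fold of 1.5 down and is called 1.5-fold here. At this threshold 52 core genes were lower in MT (67.5%, with 28 of 46 large and 24 of 31 small), against 28.9% of all entries. None was higher, against 14.6%. Rpl7 at −0.583 and Rps15 at −0.584 passed 0.58 but fell just short of an exact 1.5-fold. The single gene above 0 compares with 38% of all entries. The 95% intervals of the 2 libraries lay apart, with MT lower, for 76 of 77, against 54.7% of all, and in 0 with MT higher, against 31.1%. Of the 77 values, 40 lay within 0.1 of the threshold, so the count at 1.5-fold turns on small shifts. FPKM are shares of a library, and a smaller share of cells with the transcript and less transcript per cell cannot be told apart in bulk RNA.

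The core genes kept close together. The span between the quartiles of their log2 changes went from −0.71 to −0.55, a width of 0.16, and the half-width of a gene's own 95% interval had a median of 0.03. For all entries tested it ran from −0.66 to 0.27. Very abundant entries as a class were also lower in MT. Among entries with a mean FPKM of 300 to 1000, the 59 core genes had a median of −0.63 with 72.9% lower at 1.5-fold, and the 58 other entries a median of −0.53 with 41.4% lower. The quartiles of these other entries ran from −0.84 to −0.12, against −0.71 to −0.57 for the core. Measured from other entries of the same level, the core medians were −0.06 for the large and −0.11 for the small subunit.

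The shift also depended on the scaling of the libraries. Set against the median of all entries, the core medians were −0.39 and −0.43, and 7 genes were lower and 0 higher at 1.5-fold, against 19.4% and 21.1% of all. With both libraries brought to the same summed FPKM over named entries with loci of at least 300 bp, the medians were −0.03 and −0.07. There, 55 of 77 genes were below 0 and 22 were above, against 32% of all entries below 0. The median over all entries was 0.31. With microRNA genes also left out of that sum the medians were −0.23 and −0.27. Of the 77 core genes, 73 were then below 0, against 42.2% of all entries, whose median was 0.13. Over every entry the sum was 650275 FPKM in MB and 337279 in MT, and rescaling to it was not run. Of that sum the core held more in MT, 7.25% against 5.85% in MB.

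**Figure D2:**
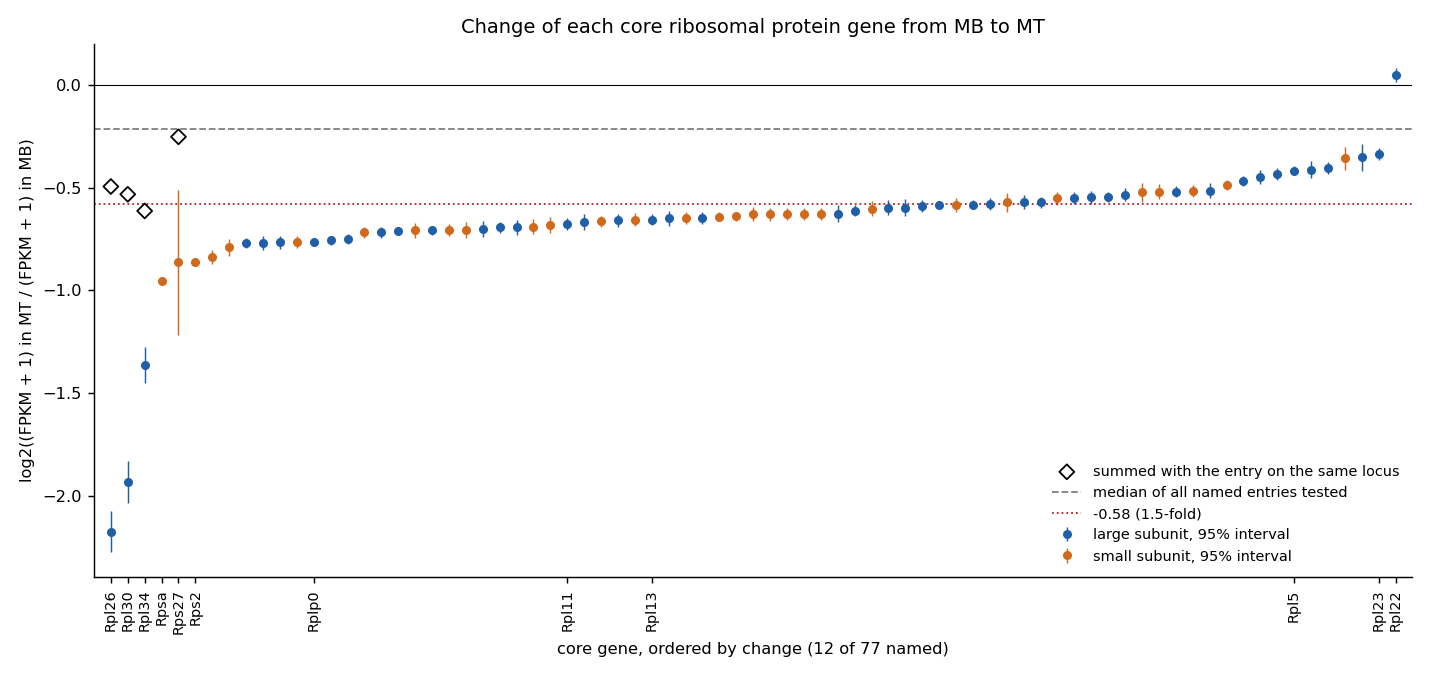
Log2 change of each core gene in MT over MB, ordered from the lowest with 12 genes named on the axis, and with 95% intervals from the deposited FPKM bounds. The dashed line is the median of all named entries tested (−0.21), the dotted line 1.5-fold, and diamonds give 4 genes after the entry on the same locus was added; Rpl26, Rpl30 and Rpl34 stand apart at −2.17, −1.93 and −1.36 but fall among the others when summed, and Rpl22 alone lies above 0.

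The lowest changes belonged to genes that share their locus with a second entry. Rpl26, whose protein sits near the exit of the peptide tunnel, was at 244 FPKM in MB and 53.4 in MT, a log2 change of −2.17 ± 0.10 (half-width of the 95% interval). Rpl30 was at 167 and 42.9, a change of −1.93 ± 0.10. Rpl34 was at 188 and 72.4, a change of −1.36 ± 0.09. Only these 3 core genes were lower by a log2 of 1 or more. The tables place Gm15772 on 99.2% of the span of Rpl26 (chr11:68715068-68718036, mm9), Gm12191 on 98.4% of Rpl30 (chr15:34370263-34373031) and Rpl34-ps1 on 97.8% of Rpl34 (chr3:130429745-130433316). In the GENCODE annotation of the same build these 3 are pseudogenes elsewhere, on chromosomes 5, 11 and 6.

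Added to its partner, each of these 3 genes lay among the rest of the set. Rpl26 with Gm15772 summed to 726 FPKM in MB and 515 in MT, a log2 change of −0.49 ± 0.18. Rpl30 with Gm12191 summed to 619 and 428 (−0.53 ± 0.04), and Rpl34 with Rpl34-ps1 to 544 and 356 (−0.61 ± 0.21). What differed between the libraries was the split: Rpl26 held 33.7% of its sum in MB and 10.4% in MT, Rpl30 26.9% and 10.0%, and Rpl34 34.5% and 20.4%. Rps27 shares chr3:90016589-90017570 with Rps27rt, which held nearly all of the signal there, at 625 FPKM in MB and 528 in MT. The sum of that pair was 635 and 533, a change of −0.25 ± 0.21. The tables mark Gm15772, Rpl34-ps1 and Rps27rt as low in data, with a lower bound of 0 in both MB and MT. The half-widths of the sums use the upper bounds only, so the sums of Rpl26, Rpl34 and Rps27 with these entries are less certain than their ± says. Gm12191 carries no such mark. Reads of such near-identical copies can be assigned to either entry, so the separate values of these 4 genes are uncertain.

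**Figure D3:**
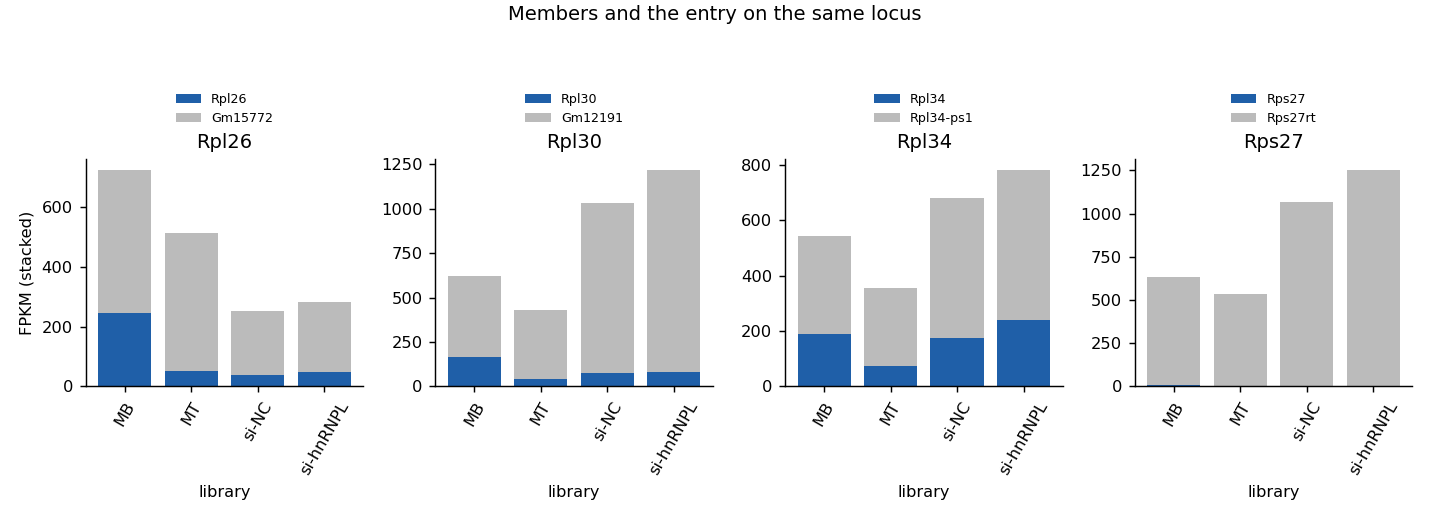
Stacked FPKM of 4 core genes (blue) and of the second entry that the tables place on the same locus (gray) in the 4 libraries, each panel on its own axis from 0. The blue part is the smaller one everywhere and shrinks more than the sum from MB to MT for Rpl26, Rpl30 and Rpl34; Rps27 is barely visible at 10.1 FPKM or less.

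Among genes with a locus of their own, Rpsa changed most. It encodes the small subunit protein also known as the laminin receptor and stood at 431 FPKM in MB and 222 in MT, a log2 change of −0.95 ± 0.02. Rps2 followed at 844 and 464 (−0.86 ± 0.02). The stalk proteins were lower together: Rplp0 was at 653 and 384 FPKM (−0.76), Rplp1 at 750 and 440 (−0.77) and Rplp2 at 544 and 342 (−0.67). Rpl5 and Rpl11, which with a ribosomal RNA form the particle that can bind Mdm2 and stabilize p53, were less alike. Rpl11 was at 616 and 385 (−0.68 ± 0.03), while Rpl5 was at 278 and 208 (−0.42 ± 0.02), and their intervals did not overlap.

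The other large subunit genes past 1.5-fold ran down to −0.77 on the log2 scale, and each is given as FPKM in MB and MT with the log2 change. Rpl8, which lies close to the site of peptide bond formation, was at 675 and 396 (−0.77), with Rpl18 at 495 and 291 (−0.77) and Rpl7a at 709 and 419.7 (−0.76). Rpl3, also near that site, was at 542 and 361 (−0.59). Rpl4, which lines the tunnel through which the new peptide leaves, was at 567 and 346 (−0.71), and Rpl12, at the base of the stalk, at 747 and 455 (−0.72). The range of these genes is bounded by the threshold, since large subunit genes short of it are left out here. Rpl13a, known also for a role in silencing inflammatory mRNAs, was at 453 and 269 (−0.75), Rpl6 at 477 and 292 (−0.71) and Rpl14 at 425 and 263 (−0.69). Rpl13 was at 535 and 339.7 (−0.65), Rpl32 at 771 and 488 (−0.66) and Rpl29 had a change of −0.69. Rpl27 was at 333 and 212 (−0.65), Rpl27a at 296 and 189 (−0.65) and Rpl28 at 438 and 283 (−0.63). Near the threshold were Rpl19 at 756 and 494 (−0.61), Rpl36a at 505 and 334 (−0.60), Rpl36 at 536 and 354 (−0.60), Rpl10a at 456 and 303 (−0.59) and Rpl7 at 647 and 432 (−0.58).

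Of the small subunit, Rps16 was at 354 and 204 (−0.79) and Rps3, a protein of the mRNA entry channel, at 202 and 123 (−0.72). Rps6, the substrate of the S6 kinases that marks active growth signaling, was at 391 and 251 (−0.64). Several members are genes in which loss of a copy causes Diamond-Blackfan anemia, a failure of red cell production in people. Of these Rps19 was at 418 and 256 (−0.71), Rps24 at 468 and 291 (−0.68), Rps7 at 392 and 249.8 (−0.65), Rps10 at 540.0 and 349 (−0.63), Rps26 at 652 and 429 (−0.60) and, in the large subunit, Rpl35a at 543 and 334 (−0.70). They were named from the genes past 1.5-fold, so their range does not describe the genes of this disease as a group. Rps27a, made as a fusion with ubiquitin, was at 443 and 281 (−0.66), and Rps12 at 912 and 559 (−0.71). Rps13 was at 412 and 252 (−0.70) and Rps4x, which lies on the X chromosome, at 699.9 and 448 (−0.64). Rps25, Rps9, Rps18 and Rps23 all had a change of −0.63, and Rps15 was at 652 and 435 (−0.58).

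At the other end, Rpl22 was the only core gene not lower in MT. It lies at chr4:151698545-151708191 (mm9), is dispensable in many cell types, and stood at 86.5 FPKM (95% interval 85.0 to 88.0) in MB and 89.5 (88.0 to 91.0) in MT, a log2 change of 0.05 ± 0.03. Rpl23, which like Rpl5 and Rpl11 can bind Mdm2, came next at 296 and 234 (−0.34 ± 0.03). Rpl38 was at 549 and 430 (−0.35 ± 0.07) and Rps28 at 409 and 319 (−0.36 ± 0.06). The other core genes short of 1.5-fold lay between Rps28 and the threshold. Of the 57 core genes with a promoter window, the 45 with a pyrimidine run between 30 bases before and 50 after the start had a median change of −0.63 and the 12 without had −0.64.

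The paralogs differed widely in level. Rpl10l and Rps4l were listed at 0 in every library, and Rpl3l, a paralog of Rpl3 known for its expression in adult heart and skeletal muscle, reached 0.0199 FPKM in MB and 0.0523 in MT, against 542 and 361 for Rpl3. Rpl39l was likewise at or below 0.0523 in every library. Of the 9 paralogs, 5 passed the filter on mean FPKM, and all 5 were below 0 in MT vs MB, against 62% of all entries. Rps27l, a target of p53, was at 294 FPKM in MB and at 146 in MT, 49.8% of the MB value, Rpl7l1 at 79.0 and 45.7 (−0.78 ± 0.04) and Rpl36al at 263 and 180 (−0.55 ± 0.05).

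Rpl22l1 and Rpl22 moved apart. Rpl22l1, which is known to be restrained by Rpl22, was at 220 FPKM in MB and 129 in MT (−0.77 ± 0.06), while Rpl22 barely differed. The ratio of Rpl22l1 to Rpl22 was 2.55 in MB, 1.44 in MT, 3.24 with si-NC and 3.43 with si-hnRNPL. By contrast, the ratio of Rpl36al to Rpl36a stayed between 0.521 and 0.539 in the 4 libraries. Of the 2 other matched symbols, Rps19bp1, a nucleolar protein that binds Rps19 and is no part of the mature ribosome, was at 61.3 and 27.3 FPKM (−1.14 ± 0.09), and Rpl37rt at 10.4 and 7.24 (−0.47 ± 0.22).

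Other genes of the translation machinery were lower in MT as well, some by more. Of the ribosomal proteins with other names, Fau was at 476 and 332 FPKM (−0.52) and Gnb2l1 at 582 and 400 (−0.54). Genes for ribosome assembly and RNA polymerase I had a median of −1.14, and 37 of the 41 tested were lower at 1.5-fold. The lowest were Nhp2, a box H/ACA protein that guides pseudouridylation of rRNA, at 104 and 27.9 FPKM (−1.85), and Grwd1, an assembly factor, at 41.0 and 10.6 (−1.85). The exceptions included Sbds, which releases Eif6 from the large subunit, at 33.4 and 34.4 (0.04), and Taf1b, a Pol I initiation factor, at 11.02 and 11.98 (0.11).

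Initiation factors had a median of −0.66, with 18 of 31 lower and 1 higher at 1.5-fold. Pabpc1, the poly(A)-binding protein, was lowest at 118 and 44.2 FPKM (−1.39), and Eif4a2, a helicase that works in place of Eif4a1, was the higher one at 74.8 and 114 (0.60). Eif4a1 itself was at 423 and 224 (−0.91). Subunits of the eIF3 scaffold were far apart, Eif3b at 64.6 and 27.9 (−1.18) and Eif3e at 164 and 153 (−0.10). The elongation factor list, which also held Eef1e1 and Tpt1, had a median of −0.89, with 6 of 9 lower. Eif5a was at 392 and 145 FPKM (−1.43), Eef1e1 at 56.8 and 24.4 (−1.19), Eef2 at 468 and 410 (−0.19) and Tpt1 at 585 and 615 (0.07). Tpt1, Eef2 and Pabpc1 are also known as TOP mRNAs. The 77 mitochondrial ribosomal proteins, encoded by other genes, had a median of −0.68 with 50 lower. The share of all entries lower at 1.5-fold was 28.9%, and these lists were described and not tested.

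**Figure D4:**
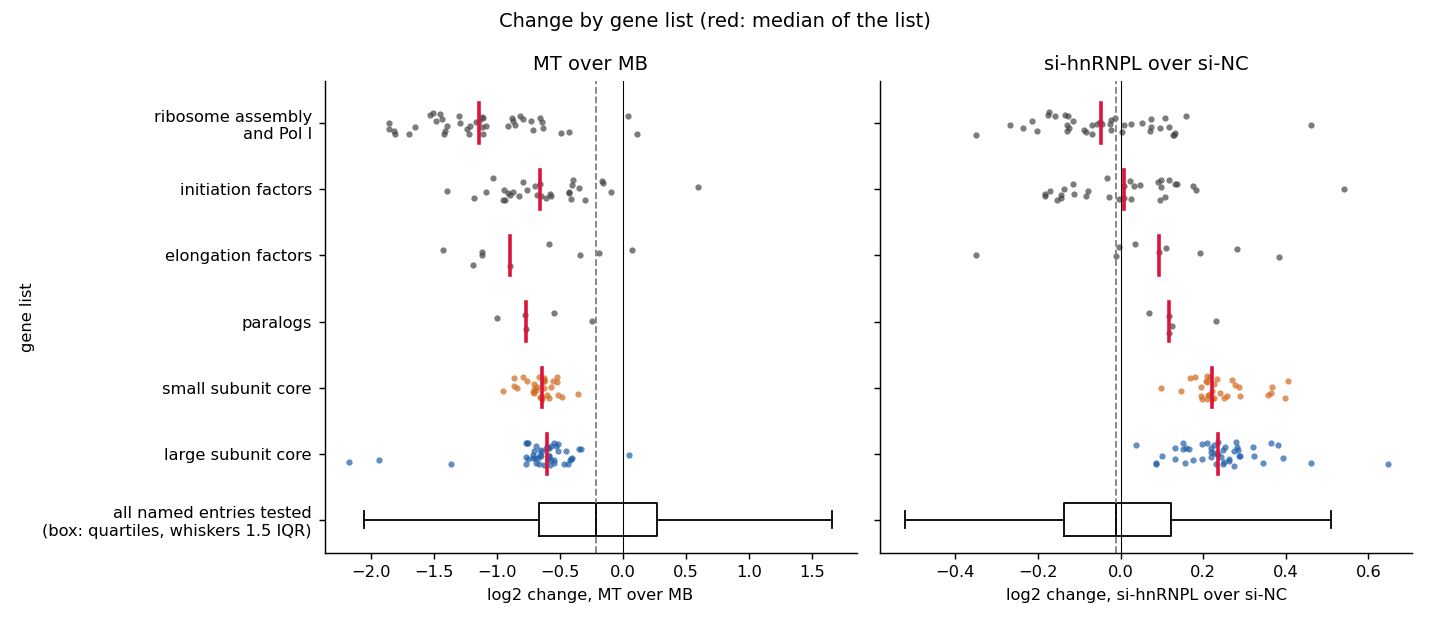
Log2 changes of the members of 6 lists (points) with their medians (red) beside the box of all named entries tested, for MT over MB (left) and si-hnRNPL over si-NC (right). On the left the medians of the core lie near −0.6 and that of assembly factors at −1.14; on the right the core lies at 0.24 and 0.22, above the initiation factors at 0.01 and the assembly list at −0.05.

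In si-hnRNPL vs si-NC the core genes were shifted the other way and by less. All 77 were above 0, against 48% of the 11234 entries tested. The median was 0.24 for the large and 0.22 for the small subunit, a difference of 0.02, and −0.01 over all entries. The intervals of the 2 libraries lay apart, with si-hnRNPL higher, for 72 of 77 (42 large and 30 small), against 14.2% of all, and in 0 with si-hnRNPL lower, against 19.6%. At 1.5-fold, however, only Rpl13 was higher (1.3%, against 1.36% of all), and 0 of 77 were lower, against 0.863%. The quartiles of the core were 0.20 and 0.28.

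Rpl13, a large subunit protein, lies at chr8:125626250-125629142 (mm9). It stood at 474 FPKM (95% interval 464 to 484) with si-NC and 743 (727 to 760) with si-hnRNPL, a log2 change of 0.65 ± 0.04. In the total RNA libraries it was not set apart, at 535 in MB and 340 in MT. Rpl34 followed at 174 and 240 (0.46 ± 0.16), but summed with Rpl34-ps1 it changed by 0.20 ± 0.11. Then came Rps28 at 566 and 750 (0.40 ± 0.11), Rps29 at 434 and 572 (0.40 ± 0.10) and Rpl41 at 1271 and 1669 (0.39 ± 0.05). Rps28, Rps29 and Rpl41 encode some of the shortest proteins of the ribosome.

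The lowest changes were those of Rpl22 at 111 and 113 FPKM (0.04 ± 0.10), Rpl4 at 654 and 694 (0.09 ± 0.03), Rpl5 at 306 and 325 (0.09 ± 0.09), Rps27 at 3.15 and 3.43 (0.10 ± 0.76) and Rpl36a at 665 and 713 (0.10 ± 0.06). Rpl22 was thus last in both comparisons in the size of its change. The stalk proteins were at 0.29 (Rplp0), 0.38 (Rplp1) and 0.23 (Rplp2). Of the 5 paralogs tested, all were above 0, against 48% of all entries, with a median of 0.12 for the paralogs. Rpl22l1 was at 359 and 389 FPKM (0.12 ± 0.11), and Rps27l at 241 and 261 (0.12 ± 0.13). Rps19bp1 was at 29.7 and 41.3 (0.46 ± 0.17).

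Several properties of the libraries moved with this shift. The log2 change went down with the annotated exon length (Spearman rho −0.40 over 10088 entries) and up with the GC content of the exons (0.41). The core genes are short, with a median exon length of 1535 bases against 3730 over all entries tested in MT vs MB. After length and GC were taken out, the core medians were 0.14 and 0.11. Of the 75 core genes with values, 68 were above 0 and 7 below, against 53.6% of all entries below. Other abundant entries were higher too: the 129 with a mean FPKM of 300 to 1000 had a median of 0.19, against 0.23 for 54 core genes, and the 21 above 1000 had 0.28, against 0.25 for 10. Measured from entries of the same level, the core medians were 0.04 and 0.04. There, 57 of 77 core genes were above 0 and 20 below, against 49.8% of all entries below. Rn45s, the rRNA precursor entry, was at 954 FPKM with si-hnRNPL against 383 with si-NC. Myotube markers had a median of 0.47 with 7 of 8 above 0, against 48% of all, and summed to 2994 and 4493 FPKM. Of the 6 myoblast markers, 3 were lower at 1.5-fold, against 0.863% of all, and 1 was higher, against 1.36%. The higher one was Id3, at 34.1 FPKM with si-NC and 64.5 with si-hnRNPL (0.90). The part of these in the result was not tested.

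The rest of the translation machinery did not share the shift in full. Ribosomal proteins with other names were close to the core: Fau was at 578 and 714 FPKM (0.30) and Rack1, the later symbol of Gnb2l1, at 692 and 797 (0.20). The elongation factor list, again with Eef1e1 and Tpt1, had a median of 0.09. Tpt1 was at 2294 and 2993 (0.38), Eef1a1 at 2594 and 3152 (0.28), Eef1e1 at 40.0 and 39.7 (−0.01) and Eif5a2 at 3.20 and 2.30 (−0.35). Initiation factors had a median of 0.01, with Eif4ebp1, an inhibitor of Eif4e under the control of mTOR, at 72.1 and 105 (0.54), Eif3k at 87.2 and 99.2 (0.18), Eif5b at 31.5 and 27.6 (−0.18) and Eif3a at 118 and 104 (−0.18). The assembly list had a median of −0.05, with Utp20 at 8.42 and 6.39 (−0.35), Gar1 at 17.2 and 14.1 (−0.27) and Nob1 at 16.1 and 18.1 (0.16). Mitochondrial ribosomal proteins had a median of 0.11, with 66 of 77 above 0, against 48% of all entries. None of the genes tested, 9 of the elongation list, 31 of the initiation list and 40 of the assembly list, was past 1.5-fold in either direction. This is close to the shares of all entries, 1.36% higher and 0.863% lower.

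Across the core, the changes in the comparisons showed little relation in size. The comparisons share no library. The Spearman rho between the log2 changes was 0.08 over the 77 genes, −0.11 over the large and 0.47 over the small subunit genes, as a description over genes of the same 4 libraries. Without the 4 genes on shared loci it was 0.10 over 73 genes.

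**Figure D5:**
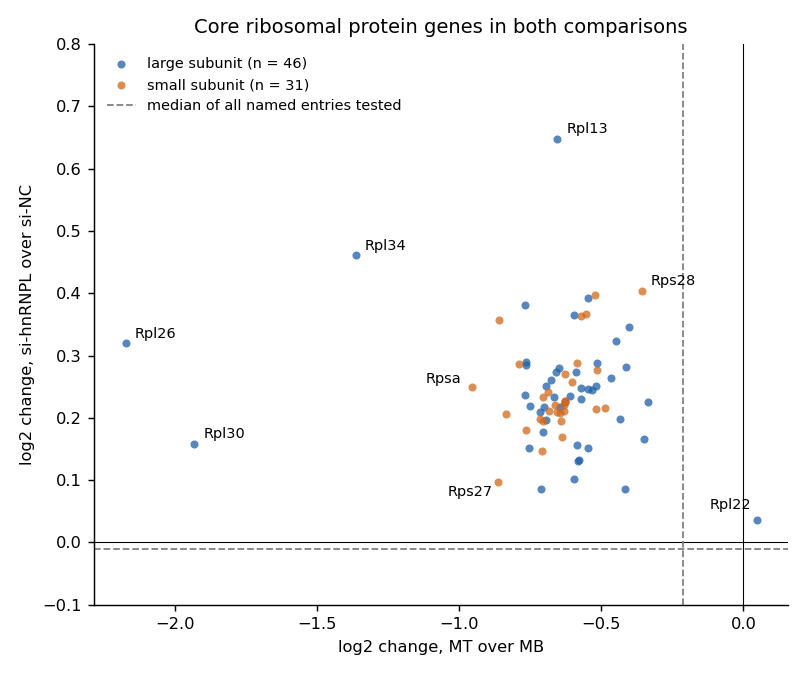
Log2 change of each core gene in MT over MB (x) against si-hnRNPL over si-NC (y), colored by subunit, with dashed lines at the medians of all named entries tested (−0.21 and −0.01). Apart from Rpl22, every gene lies left of and above 0, most in a compact cloud, with Rpl26, Rpl30 and Rpl34 far to the left and Rpl13 on top at 0.65.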

How the data were processed

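C2C12 cells were profiled as rRNA-depleted total RNA (MB, MT) and as polyA RNA (si-NC, si-hnRNPL), with 1 library per condition. Reads were trimmed by the authors, kept at 36 bp or longer and aligned to mm9 (TopHat 2.0.13), and abundance was estimated with Cufflinks 2.1.1. The deposited values are FPKM with 95% bounds. Since a gene's reads are shared among its entries and FPKM are relative to the library, near-identical copies and a few very abundant RNAs can move other values.

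Changes were log2((FPKM + 1) ratio), with entries tested at a mean FPKM of at least 1. They were called at 0.58, the study's fold of 1.5 rounded down on the log2 scale. Intervals of a change combine both libraries' bounds on the log2 scale and cover counting and assignment only. The effective number of fragments was taken from the bounds of each FPKM and summed over entries. No test was possible with 1 library per condition. Exon lengths and GC contents came from GENCODE vM1 on mm9 and could be matched for 75 of the 77 core genes, and promoter windows from RefSeq (GRCm38.p6). Loci were called shared at an overlap of 90% of the member's span. Python 3.11.15 with pandas 2.3.3 was used, and the steps were tested on simulated data.

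The genes named are the 3 core members of each subunit with the highest and the 2 with the lowest FPKM, in each comparison the 5 core members at either end of the ranked changes, every core gene past 1.5-fold, all paralogs, the stalk proteins, Rpl5, Rpl11, the ribosomal proteins with other names, and the extremes of the translation lists. Rps20, Rpl29, Rpl39, Eif4a1 and Rn45s, and the genes with printed windows, were chosen after their values or sequences were seen. The members and lists were chosen with earlier results of these data known. Values for a few further members are not reported here.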

Additional observations from a re-analysis of the deposited data

How the results depend on the processing

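Of 148 values recomputed under other settings, 117 moved by less than their interval or, for counts, by less than 1.5 times. Another 31 moved by more. The medians and their differences kept their sign in the settings run, whereas counts have none. For MT vs MB the main values were medians of −0.60 (large) and −0.64 (small) and 52 core genes lower. Centering on all entries gave −0.39, −0.43 and 7. Rescaling to the same sum over named entries with loci of at least 300 bp gave −0.034, −0.070 and 3 lower with 1 higher. The median over all entries was then 0.31. No setting brought the libraries to the same sum over every entry, and the sign of the medians under that scaling was not computed. Removing exon length and GC effects gave −0.51, −0.54 and 21 of 75. A threshold of 1 gave 3. For si-hnRNPL vs si-NC the main values were 0.24, 0.22 and 1 gene higher. Rescaling gave 0.13, 0.12 and 0, removing length and GC gave 0.14, 0.11 and 0, a threshold of 1 gave 0 and a threshold of 0.32 gave 12. Centering, rescaling and another threshold shift all entries or the threshold, which by construction moves a set this narrow. Removing length and GC corrects entries by bin, and the cause of that move was not tested.

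Further settings were chosen after seeing the data. Rescaling without microRNA genes gave −0.23, −0.27 and 4 lower for MT vs MB and 0.13, 0.12 and 0 higher for si-hnRNPL vs si-NC. Centering on other entries of the same expression level gave −0.064, −0.11 and 4 lower, and 0.043, 0.035 and 0 higher. Adding the entry on the same locus, or copies with the suffix -ps, moved none of these by more than those limits. Rescaling shifts all log2 changes of MT vs MB by 0.57, or by 0.37 without microRNA genes, and those of si-hnRNPL vs si-NC by −0.10. No paired analysis was possible because each condition has 1 library. The values describe these libraries, not the spread between cultures.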

Other observations

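Many ribosomal protein genes host small nucleolar RNAs, which guide the modification of rRNA, in their introns. The total RNA tables list 37 small RNA entries inside the loci of 24 core genes, of which 14 were above 0 in both MB and MT. In polyA RNA 6 of them were above 0 in at least 1 library. Snord15b, inside Rps3, was at 298 FPKM in MB and 306 in MT, a log2 change of 0.04, while its host was at −0.72. Snora7a, inside Rpl32, was at 255 and 251 (−0.02) with its host at −0.66, and Snora70, inside Rpl10, at 207 and 214 (0.05) with its host at −0.47. Others were lower with their hosts: Snora64, inside Rps2, was at 378 and 205 (−0.88, host −0.86) and Snora52, inside Rplp2, at 123 and 59.6 (−1.03, host −0.67). These 5 were chosen after their values were seen. The intervals of MB and MT overlapped for 12 of the 14, Snora64 and Snora52 being the exceptions. Over all entries tested the intervals lay apart for 54.7% with MT lower and for 31.1% with MT higher. FPKM of entries as short as these small RNAs are imprecise.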
